A study of Mus musculus with 16 samples.

Results

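The genes described here are 35 genes of macrophages and other leukocytes, followed in cultured mouse pancreatic islets. They were chosen by symbol from a list of complement C1q chains, Fc receptors, myeloid identity genes and leukocyte genes, and each symbol mapped to 1 Ensembl identifier, which gave 35 of the 52636 genes in the count table. The choice was made with earlier results of these data known, which limits every comparison of these genes with all genes tested. Of these, 33 passed a filter on low counts over the 4 conditions and were tested among 18587 genes, and Cd163 and Clec4a3 did not pass. Gene expression had been measured by RNA sequencing in islets of male, 12-week-old C57BL/6 mice (substrain C57BL/6JRj in the sample labels and C57BL/6NRj in the methods) that were not genetically modified. They were cultured for 10 days in medium alone (control) or in medium with recombinant mouse IL-1β at 50 pg/mL, sodium butyrate at 0.2 mM, or both. IL-1β signals inflammation, and butyrate, a fatty acid of short chain, is a product of bacterial fermentation in the gut. Each of the 4 conditions had 4 libraries from independent experiments, and the 500 islets behind a library were a pool from several mice, so the p-values measure the spread between pools and not between mice.

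Islets hold resident macrophages among the endocrine cells. Such macrophages depend on the receptor for CSF1 and on the transcription factor PU.1, they take up debris and immune complexes through scavenger and Fc receptors, and they are the main source of complement C1q in many tissues. A bulk library of a whole islet reads the few leukocytes together with all endocrine cells, and in it fewer cells of a type and less RNA per cell cannot be told apart.

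The libraries held between 18635943 and 25955943 counts. Levels are given as CPM (counts relative to the library total), scaled by TMM factors that align the bulk of the genes between libraries, and as RPKM (CPM per kilobase of exon) where genes are compared with each other. The genes were scarce: their summed share of all counts was between 0.0114% and 0.0502% per library. A gene was called raised or lowered at a Benjamini-Hochberg adjusted p under 0.01 in edgeR's quasi-likelihood test over all genes tested.

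IL-1β raised the macrophage genes almost as a block. Against control, 32 of the 33 genes tested were raised and 1, C1qa, was lowered, where 17.8% of all genes tested were called (11.2% raised and 6.59% lowered). The filter used all 4 conditions, so a gene scarce without IL-1β could pass it through the libraries with IL-1β. When only control and butyrate libraries were fitted, 27 of the genes passed. For a gene that passed in this way a fall with IL-1β could hardly be called, so the count of 32 is not independent of the filter. The median log2 fold change of the 33 was 2.20, beside -0.03 over all genes tested. For all 32 raised genes the lowest IL-1β library lay above the highest control library, a separation seen in that direction for 14.1% of all genes tested. The smallest rise was that of Fcer1g, to 2.12-fold, and the largest that of Fcrls, to 12.6-fold. When 1 of the 8 libraries was left out at a time, 31 of the 33 calls were made in all 8 fits, and C1qa and Cd86 were not.

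Added to IL-1β, butyrate lowered part of these genes, and to unequal extents. Against IL-1β alone, 14 of the 33 were lowered and 0 raised by edgeR, where 19.5% of all genes tested were called, 8.41% raised and 11.1% lowered. At an unadjusted p under 0.05, 25 of the 33 passed, all lower, as did 39.9% of all genes tested in either direction, and DESeq2 called 17 lowered and 0 raised. The log2 fold changes of all 33 were negative, with a median of -0.77 beside 0.01 over all genes tested, of which 48% were negative. For 13 of the 33 the highest library with both additions lay below the lowest with IL-1β, as for 14.5% of all genes tested. The lowered genes were C1qa, C1qb, C1qc, Fcer1g, Tyrobp, Fcgr3, Fcrls, Trem2, Adgre1, Cd53, Cd68, Ctss, Mpeg1 and Ms4a7. The count rested on single libraries: it was 8 without IL-1β replicate 4, 9 without IL-1β and butyrate replicate 2, and 21 without IL-1β replicate 1 or without IL-1β and butyrate replicate 4. It was 6 in a fit of only the 8 libraries compared, in which 9.74% of all genes tested were lowered. With the replicate number as a block it was 27, where 4983 of all 18587 genes tested were called, 2126 of them raised. The calls of C1qa, Fcer1g, Tyrobp, Fcrls, Trem2, Adgre1 and Ms4a7 held in all 8 fits that left out 1 library.

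With butyrate alone, 1 of these genes passed the test in the main fit, which had no replicate block. Against control, C1qa was lowered and the other 32 genes were not called, where 19.9% of all genes tested were called, 8.53% raised and 11.4% lowered. At an unadjusted p under 0.05, 8 of the 33 passed, as did 38.6% of all genes tested. The log2 fold changes of 27 of the 33 were negative, with a median of -0.42 beside 0.01 over all genes tested, of which 48.8% were negative, and 10 of the 33 were lower without overlap between the 4 butyrate and the 4 control libraries, as were 16.8% of all genes tested. DESeq2 called 2 lowered, C1qa and Fcrls, and a fit of only the 8 libraries compared, in which 27 of the genes passed the filter, called 7 lowered, where 12.6% of all genes tested were lowered. With the replicate number as a block, 9 of the 33 were lowered and 0 raised, where 4879 of all 18587 genes tested were called, 2105 of them raised. Against the same controls, islets with both additions had 26 genes raised and 1 lowered, where 30.6% of all genes tested were called (15.8% raised and 14.8% lowered). The 6 not called there were Fcer1g, Fcrls, Trem2, Adgre1, Cd68 and Cd86. Against butyrate alone, both additions raised 30 genes and lowered C1qa, where 14.8% of all genes tested were called (9.92% raised and 4.86% lowered), and C5ar1 and Cd86 were not called. Calls lost when 1 library was left out against control were those of Laptm5 without control replicate 1, 2, 3 or 4 or both-additions replicate 3, Lyz2 without control replicate 1, 2 or 3 or both-additions replicate 3 or 4 and Mrc1 without control replicate 2 or 3 or both-additions replicate 1 or 4. Calls lost when 1 library was left out against butyrate were those of Fcer1g without both-additions replicate 2, 3 or 4 or butyrate replicate 1, 2, 3 or 4, Fcrls without both-additions replicate 3 or butyrate replicate 1, 2 or 4, Cd68 without both-additions replicate 3 or butyrate replicate 2 or 4, Lyz2 without both-additions replicate 3 or 4 or butyrate replicate 1 or 2 and Mrc1 without both-additions replicate 1 or 4 or butyrate replicate 1 or 4.

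**Figure D1:**
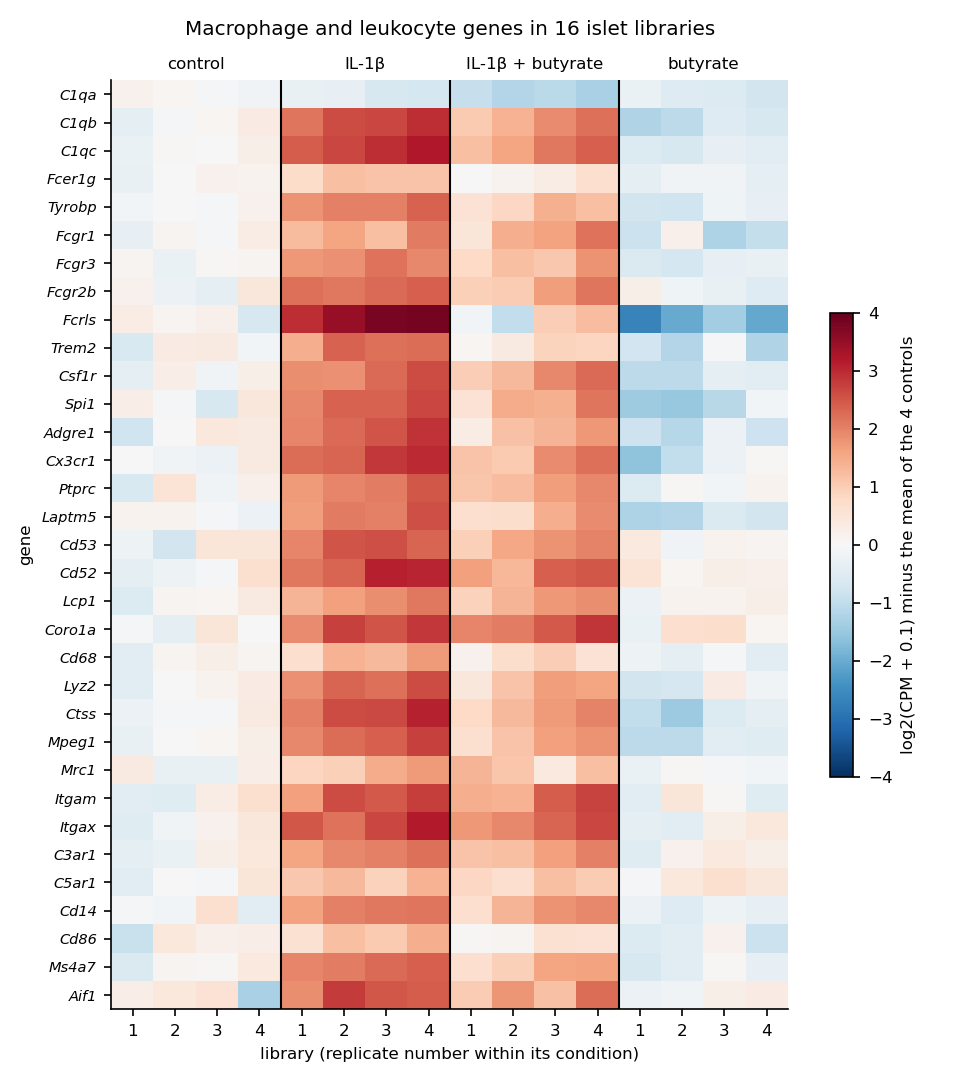
Levels of the 33 genes tested (rows, ordered by role) in the 16 libraries (columns, by condition and replicate number). Colour gives log2(CPM + 0.1) minus the mean of the 4 control libraries of that gene. All rows but C1qa are red under IL-1β and most are paler with butyrate added, and C1qa is blue in all 3 treated conditions.

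The chains of C1q differed in direction. C1q, which opens the classical complement pathway, is built from equal numbers of A, B and C chains, encoded by C1qa (ENSMUSG00000036887), C1qb (ENSMUSG00000036905) and C1qc (ENSMUSG00000036896). They are neighbours on the minus strand of chromosome 4 in GRCm38, C1qb from 136880129 to 136886187, C1qc from 136889804 to 136893065 and C1qa from 136895917 to 136898803, and their exons overlap no other gene annotated in GENCODE M21. Annotation release and strand setting of the counting are not given in the sources used here. Whether all reads counted on C1qa came from its own transcript could therefore not be checked, and its values are uncertain. In CPM, C1qb was at 2.47, 3.09, 3.44 and 4.11 in control, 14.7, 20.3, 21.3 and 25.9 with IL-1β, 6.82, 8.53, 12.3 and 15.2 with IL-1β and butyrate, and 1.36, 1.51, 2.25 and 2.02 with butyrate. For C1qc the control libraries had 2.33, 2.88, 2.82 and 3.30 CPM, those with IL-1β 15.6, 18.6, 22.6 and 26.8, those with both 6.66, 8.62, 12.5 and 15.2 and those with butyrate 1.91, 1.78, 2.19 and 2.02. Both genes had their means in the order IL-1β, both additions, control and butyrate, and the libraries with IL-1β and with both lay above all controls. C1qa had 124, 116, 105 and 99.6 CPM in the control libraries, 91.0, 88.5, 71.6 and 67.6 with IL-1β, 58.2, 49.4, 52.0 and 45.0 with both additions and 91.8, 77.0, 75.5 and 66.3 with butyrate. Its control libraries all lay above those of the other conditions, and those with both additions all below.

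With IL-1β the log2 fold change was 2.65 ± 0.27 for C1qb (edgeR adjusted p = 4.60e-06) and 2.89 ± 0.26 for C1qc (edgeR adjusted p = 1.33e-06), each given with its SE. For C1qa it was -0.49 ± 0.12 (edgeR adjusted p = 0.00765), a call that was lost without control replicate 1, 2 or 3 or without IL-1β replicate 2, 3 or 4, with edgeR adjusted p of up to 0.0292. Butyrate added to IL-1β lowered all 3 chains, to 64.4% of the level with IL-1β for C1qa, 51.5% for C1qb and 50.7% for C1qc (edgeR adjusted p = 0.00143, 0.00588 and 0.00352). C1qb overlapped between these conditions, since its highest library with both additions exceeded its lowest with IL-1β. Its call was lost without IL-1β replicate 2, 3 or 4 and without IL-1β and butyrate replicate 1 or 2, and that of C1qc without IL-1β replicate 4 and without IL-1β and butyrate replicate 2. Butyrate alone lowered C1qa to 69.7% of control (log2 fold change -0.52 ± 0.12, edgeR adjusted p = 0.00448), and the call was lost without control replicate 1 or 2 or butyrate replicate 2, 3 or 4. C1qb and C1qc lay below control in all 4 butyrate libraries but were not called (edgeR adjusted p = 0.103 and 0.324).

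**Figure D2:**
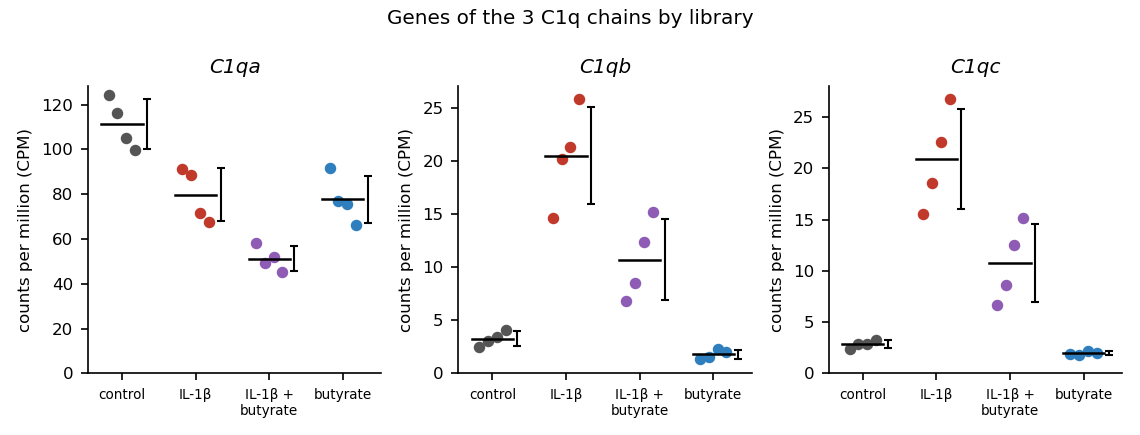
CPM of C1qa, C1qb and C1qc in each library of the 4 conditions, on linear axes that start at 0. Points are libraries, the horizontal line is the mean and the bar beside it is the SD (n = 4). C1qb and C1qc rise with IL-1β from a mean of 3.28 and 2.83 to 20.5 and 20.9 CPM, while C1qa falls from 111 to 79.7 CPM.

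Per length, C1qa exceeded its neighbours throughout. The ratio of C1qa to C1qb in RPKM was between 25.3 and 52.6 in the control libraries, between 34.3 and 70.8 with butyrate, between 2.73 and 6.49 with IL-1β and between 3.10 and 8.93 with both. The ratio of C1qc to C1qb stayed between 0.452 and 0.793 over all 16 libraries. C1qa alone supplied between 56.8% and 71.0% of all counts on the 35 genes in control libraries and between 14.4% and 28.1% with IL-1β. A summed level of the genes therefore depended on whether C1qa was in it. Over all 35 genes the sum was 172.7 to 180.7 CPM in control, 324 to 470.4 with IL-1β, 169 to 278 with both and 118 to 134 with butyrate. Without C1qa it was 50.9 to 75.8, 233 to 403, 110.3 to 233 and 37.8 to 58.4 CPM in the same order. The mean over the 4 libraries without C1qa was 64.7 CPM in control and 316 CPM with IL-1β.

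Fc receptors, their signalling partners and Trem2 made up a group of 7 genes. IL-1β raised all 7, beside 11.2% of all genes tested, and butyrate in its presence lowered 5 of them, beside 11.1%. In CPM, Fcrls was at 1.07, 0.917, 1.00 and 0.514 in control, 7.24, 10.6, 13.01 and 13.3 with IL-1β, 0.772, 0.382, 1.80 and 2.12 with IL-1β and butyrate, and 0.0502, 0.133, 0.261 and 0.129 with butyrate. Fcrls, an Fc receptor-like scavenger receptor used as a marker of microglia (ENSMUSG00000015852, chromosome 3 from 87250758 to 87263738), thus had few counts in islets without IL-1β. As counts these were 23, 22, 21 and 12 in control, 140, 217, 251 and 369 with IL-1β, 19, 9, 41 and 44 with both, and 1, 3, 5 and 3 with butyrate. Its log2 fold change was 3.66 ± 0.35 with IL-1β (edgeR adjusted p = 1.06e-06) and -3.15 ± 0.33 with butyrate added (edgeR adjusted p = 3.69e-06), the largest rise and the largest fall among the 33. Islets with both additions overlapped with control. With butyrate alone the level was 16.8% of control without overlap, and the edgeR adjusted p was 0.0158. Relative to Csf1r in the same library, Fcrls in RPKM was 0.345 to 1.09 in control, 1.53 to 2.31 with IL-1β, 0.121 to 0.364 with both and 0.0853 to 0.275 with butyrate.

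For Trem2 the control libraries had 0.513, 1.08, 1.10 and 0.770 CPM, those with IL-1β 2.48, 4.67, 4.20 and 4.29, those with both 0.893, 1.10, 1.62 and 1.59 and those with butyrate 0.452, 0.311, 0.784 and 0.301. TREM2 is a lipid-sensing receptor of macrophages, and its levels with both additions were partly within the control range. Tyrobp had 1.21, 1.29, 1.24 and 1.50 CPM in the control libraries, 4.81, 5.55, 5.65 and 7.18 with IL-1β, 1.99, 2.38, 3.63 and 3.13 with both additions and 0.753, 0.711, 1.15 and 1.03 with butyrate. Tyrobp encodes the ITAM adaptor DAP12, through which TREM2 signals, and no library with both additions reached the lowest with IL-1β. In CPM, Fcer1g was at 2.47, 3.04, 3.49 and 3.38 in control, 5.22, 7.21, 6.89 and 6.89 with IL-1β, 3.05, 3.40, 3.81 and 4.91 with IL-1β and butyrate, and 2.36, 2.75, 2.77 and 2.37 with butyrate. Fcer1g encodes the common gamma chain of Fc receptors, and IL-1β replicate 1 stood below the other libraries of its condition. The log2 fold changes with IL-1β were 2.17 ± 0.25 for Trem2, 2.15 ± 0.18 for Tyrobp and 1.08 ± 0.14 for Fcer1g (edgeR adjusted p = 1.62e-07, 5.00e-10 and 1.01e-06). With butyrate added they were -1.60 ± 0.24, -1.08 ± 0.16 and -0.80 ± 0.14 (edgeR adjusted p = 8.82e-06, 1.29e-05 and 5.92e-05). Of the classical Fc gamma receptors, which bind IgG, Fcgr1, Fcgr2b and Fcgr3 rose to 3.66-fold, 5.40-fold and 4.08-fold of control with IL-1β. Fcgr3 was lowered to 61.9% by butyrate in its presence, a call lost without IL-1β replicate 3 and without IL-1β and butyrate replicate 1, 2 or 3. Fcgr1 had 95.3% and Fcgr2b 58.6% of its IL-1β level and neither was called. Of the stretches of 50 bases in Fcgr3 transcripts, 9.58% also occur in Fcgr2b, so part of the reads of these 2 genes could have been assigned to either.

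**Figure D3:**
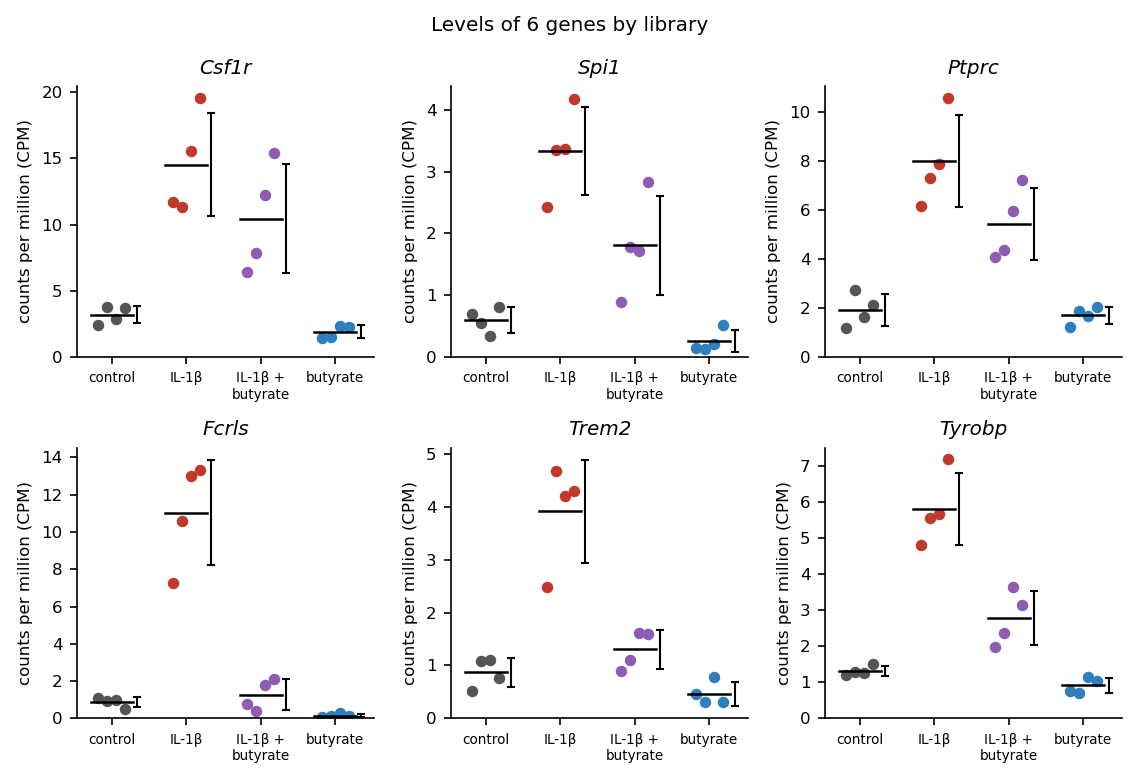
CPM of Csf1r, Spi1, Ptprc, Fcrls, Trem2 and Tyrobp in each library, on linear axes that start at 0. Points are libraries, the line is the mean and the bar the SD (n = 4). All 6 are highest with IL-1β, and with both additions Fcrls and Trem2 lie close to control whereas Csf1r, Spi1, Ptprc and Tyrobp lie above it.

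Of the 35 genes, 27 have an entry in the RefSeq promoter table for GRCm38.p6, and C1qa, Tyrobp, Csf1r, Spi1, Adgre1, Cd52, Cd14 and Cd86 have none. The 250 bases before the start site of C1qb, C1qc, Fcrls and Trem2 are shown because C1qb and C1qc are the neighbours of C1qa that rose, and Fcrls and Trem2 had the largest falls with butyrate added among the 33 genes tested. Start sites are those of RefSeq, and the gene limits of GENCODE M21 given above differ from them: 214 of the 250 bases of Fcrls and 151 of those of C1qc lie inside the gene as GENCODE draws it, and 0 of those of C1qb and Trem2. Capitals mark matches, on either strand, to the core bound by PU.1, the product of Spi1 (GAGGAAG, read as CTTCCTC on the other strand), or to a second core of the ETS family to which PU.1 belongs (AGGAAGT, read as ACTTCCT). The motifs can overlap, since the second starts with all but the first letter of the first. The first was present before 8 of the 27 genes and before 12.0% of the 27025 genes in the table, and the second before 8 of the 27 and before 8.80% of all. C1qb had the second core, C1qc and Fcrls both, and Trem2 the first. A match describes letters in these windows and shows no binding.
C1qb (chr4:136886201-136886450, minus strand): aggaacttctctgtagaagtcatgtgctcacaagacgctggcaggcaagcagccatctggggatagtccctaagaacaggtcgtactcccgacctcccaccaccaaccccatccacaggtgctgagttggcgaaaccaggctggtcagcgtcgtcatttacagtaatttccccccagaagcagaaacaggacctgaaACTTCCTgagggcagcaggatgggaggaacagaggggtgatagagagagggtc
C1qc (chr4:136892915-136893164, minus strand): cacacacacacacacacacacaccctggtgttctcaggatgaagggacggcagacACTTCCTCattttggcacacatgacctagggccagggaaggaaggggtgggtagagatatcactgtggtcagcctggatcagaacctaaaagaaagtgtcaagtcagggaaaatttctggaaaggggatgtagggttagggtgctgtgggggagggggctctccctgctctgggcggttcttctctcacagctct
Fcrls (chr3:87263525-87263774, minus strand): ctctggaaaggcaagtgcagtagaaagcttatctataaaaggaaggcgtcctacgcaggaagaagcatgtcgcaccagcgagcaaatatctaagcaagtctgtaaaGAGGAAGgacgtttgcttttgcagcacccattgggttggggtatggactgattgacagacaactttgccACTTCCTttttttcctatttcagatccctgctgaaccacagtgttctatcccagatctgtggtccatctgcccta
Trem2 (chr17:48346151-48346400, plus strand): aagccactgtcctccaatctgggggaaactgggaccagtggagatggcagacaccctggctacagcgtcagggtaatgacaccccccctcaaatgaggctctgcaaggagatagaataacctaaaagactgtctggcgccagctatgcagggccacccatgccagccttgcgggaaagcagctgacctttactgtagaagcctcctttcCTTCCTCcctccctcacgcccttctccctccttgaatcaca

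The 4 genes of myeloid identity were all raised by IL-1β, beside 11.2% of all genes tested. Butyrate in its presence lowered 1 of them, Adgre1, beside 11.1% of all genes tested. For Csf1r the control libraries had 2.43, 3.79, 2.87 and 3.68 CPM, those with IL-1β 11.7, 11.3, 15.5 and 19.6, those with both 6.38, 7.81, 12.2 and 15.4 and those with butyrate 1.46, 1.47, 2.35 and 2.28. Csf1r encodes the receptor for CSF1 and IL-34 on which resident macrophages depend, and its levels with both additions overlapped with those of IL-1β alone. Spi1 had 0.700, 0.542, 0.334 and 0.813 CPM in the control libraries, 2.43, 3.36, 3.37 and 4.19 with IL-1β, 0.893, 1.78, 1.71 and 2.84 with both additions and 0.151, 0.133, 0.209 and 0.516 with butyrate. Spi1 encodes PU.1, and its butyrate libraries had 3 to 12 counts each. In CPM, Adgre1 was at 0.933, 1.71, 2.29 and 2.23 in control, 6.82, 8.57, 10.3 and 13.3 with IL-1β, 2.11, 3.99, 4.55 and 5.87 with IL-1β and butyrate, and 0.904, 0.711, 1.41 and 0.903 with butyrate. Adgre1 encodes the surface marker F4/80. The rises with IL-1β were 2.19 ± 0.30, 2.47 ± 0.31 and 2.45 ± 0.31 on the log2 scale (edgeR adjusted p = 9.86e-05, 1.73e-06 and 3.32e-05). With butyrate added, Adgre1 fell to 41.6% of the IL-1β level (edgeR adjusted p = 0.00312), and Spi1 was at 53.1% and Csf1r at 70.7% without passing the test (edgeR adjusted p = 0.0109 and 0.17). Cx3cr1, the fractalkine receptor, rose to 6.41-fold of control with IL-1β and was at 49.6% of that level with both, below it in all libraries and not called (edgeR adjusted p = 0.0129). Exons of Csf1r share 873 bases with the opposite strand of Hmgxb3, and the strand setting of the counting is not stated in the sources used here.

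All 6 pan-leukocyte genes were raised by IL-1β, beside 11.2% of all genes tested. Butyrate in its presence lowered 1 of the 6, beside 11.1% of all genes tested. For Ptprc the control libraries had 1.17, 2.71, 1.62 and 2.10 CPM, those with IL-1β 6.15, 7.30, 7.88 and 10.6, those with both 4.06, 4.37, 5.96 and 7.22 and those with butyrate 1.21, 1.87, 1.67 and 2.02. Ptprc encodes CD45, carried by all nucleated blood cells, and its IL-1β and combined libraries overlapped. Cd52 had 0.140, 0.167, 0.191 and 0.385 CPM in the control libraries, 1.24, 1.46, 2.54 and 2.45 with IL-1β, 0.853, 0.679, 1.53 and 1.64 with both additions and 0.352, 0.222, 0.261 and 0.258 with butyrate. Cd52 encodes a small glycoprotein of leukocyte surfaces, and 172 of its exon bases lie opposite those of Crybg2. Control libraries had at most 9 counts of it. The log2 fold changes with IL-1β were 2.07 ± 0.24 for Ptprc and 3.09 ± 0.36 for Cd52 (edgeR adjusted p = 3.29e-06 and 1.63e-07). Coro1a and Lcp1, which organise leukocyte actin, rose to 6.40-fold and 3.41-fold, and with butyrate added stood at 87.7% and 82.5% of the IL-1β level, not called. The tetraspanin gene Cd53 was the one called lower there, at 58.5%, and that call was lost without IL-1β replicate 2, 3 or 4 and without IL-1β and butyrate replicate 1 or 2. Laptm5, a lysosomal membrane gene of haematopoietic cells, was at 53.7% and Cd52 at 60.0%, not called. With butyrate alone, Coro1a, Cd52, Cd53 and Lcp1 had positive log2 fold changes against control, between 0.05 and 0.37, as did only C3ar1 and C5ar1 besides, and none of the 6 was called by edgeR.

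The 4 lysosomal and antimicrobial genes were all raised by IL-1β, beside 11.2% of all genes tested. Butyrate in its presence lowered 3 of them, beside 11.1% of all genes tested. In CPM, Lyz2 was at 7.28, 9.76, 10.9 and 12.5 in control, 35.6, 50.2, 45.8 and 60.8 with IL-1β, 13.6, 21.8, 31.7 and 30.0 with IL-1β and butyrate, and 5.93, 6.22, 12.4 and 8.99 with butyrate. Lyz2 encodes lysozyme, and 15.4% of its stretches of 50 bases also occur in Lyz1. For Ctss the control libraries had 3.03, 3.38, 3.49 and 4.58 CPM, those with IL-1β 14.8, 22.3, 22.6 and 31.0, those with both 6.33, 8.997, 12.0 and 14.3 and those with butyrate 1.76, 1.24, 2.40 and 2.75. Ctss encodes cathepsin S, which processes antigen, and no library with both additions reached the lowest with IL-1β. Cd68 had 1.68, 2.502, 2.72 and 2.53 CPM in the control libraries, 3.77, 6.18, 5.91 and 7.83 with IL-1β, 2.60, 3.86, 4.64 and 3.52 with both additions and 2.01, 1.78, 2.25 and 1.68 with butyrate. Cd68 encodes a lysosomal glycoprotein used to stain macrophages, and its highest combined library lay above its lowest IL-1β library. The log2 fold changes with IL-1β were 2.25 ± 0.29, 2.65 ± 0.29 and 1.34 ± 0.20 (edgeR adjusted p = 6.50e-05, 1.42e-05 and 1.14e-05). With butyrate added, Ctss fell to 45.2% and Cd68 to 60.9% of the IL-1β level (edgeR adjusted p = 0.00412 and 0.0047), and Lyz2, at 49.9% and below all IL-1β libraries, was not called (edgeR adjusted p = 0.0119). Mpeg1, the perforin-like gene of macrophages, rose to 5.16-fold and fell to 49.7% of that. The call of Ctss with butyrate was lost without IL-1β replicate 4 and without IL-1β and butyrate replicate 2, that of Cd68 without IL-1β replicate 2 or 4 and without IL-1β and butyrate replicate 1 or 4, and that of Mpeg1 without IL-1β replicate 2, 3 or 4 and without IL-1β and butyrate replicate 1 or 2.

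The scavenger receptor genes were rare. In CPM, Mrc1 was at 0.513, 0.292, 0.287 and 0.471 in control, 0.776, 0.828, 1.24 and 1.48 with IL-1β, 1.14, 0.934, 0.526 and 1.01 with IL-1β and butyrate, and 0.301, 0.400, 0.366 and 0.344 with butyrate. Mrc1 encodes the mannose receptor, and its log2 fold change was 1.48 ± 0.31 with IL-1β (edgeR adjusted p = 0.000549) and -0.28 ± 0.27 with butyrate added (edgeR adjusted p = 0.463). Cd163, the haemoglobin scavenger receptor, had 3, 9, 7 and 6 counts in control, 4, 3, 3 and 2 with IL-1β, 2, 0, 2 and 0 with both, and 2, 0, 3 and 4 with butyrate. It was the one gene besides C1qa whose IL-1β mean was not above the control mean. In a fit without the low-count filter it was lower with both additions than in control (log2 fold change -2.52 ± 0.72, edgeR adjusted p = 0.00348) and was called in no other comparison. Clec4a3, a C-type lectin receptor, had 0, 2, 2 and 2 counts in control, 6, 11, 12 and 14 with IL-1β, 1, 1, 1 and 4 with both, and 2, 0, 1 and 0 with butyrate. In the same fit it rose with IL-1β (2.80 ± 0.60, edgeR adjusted p = 5.53e-05) and fell with butyrate added (-2.61 ± 0.58, edgeR adjusted p = 0.000122).

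For Itgam the control libraries had 0.0467, 0.0417, 0.143 and 0.214 CPM, those with IL-1β 0.517, 1.12, 0.985 and 1.26, those with both 0.447, 0.424, 0.963 and 1.204 and those with butyrate 0.0502, 0.178, 0.105 and 0.0430. Itgam encodes the integrin CD11b and was rare in islets without IL-1β. The annotated gene Gm49368 shares 3450 of its 5024 exon bases on the same strand, and 66.3% of its stretches of 50 bases occur in that gene, so its values are uncertain. Its log2 fold change with IL-1β was 3.08 ± 0.49 (edgeR adjusted p = 1.64e-05). Itgax, the integrin CD11c, of whose stretches of 50 bases 8.02% also occur in Itgad, rose to 6.62-fold, and the genes of the anaphylatoxin receptors, C3ar1 and C5ar1, to 3.93-fold and 2.33-fold. None of these 4 was called with butyrate added, where they held between 70.8% and 83.2% of the IL-1β level. Of the genes of sensing and costimulation, Cd14, the co-receptor for endotoxin, rose to 4.20-fold, Aif1, which encodes the macrophage marker IBA1, to 6.11-fold, Ms4a7 to 4.60-fold and the costimulatory gene Cd86 to 2.17-fold. The call of Cd86 was lost without control replicate 1 or IL-1β replicate 4. Ms4a7 alone of them was lowered with butyrate added, to 51.8% (edgeR adjusted p = 0.000286).

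**Figure D4:**
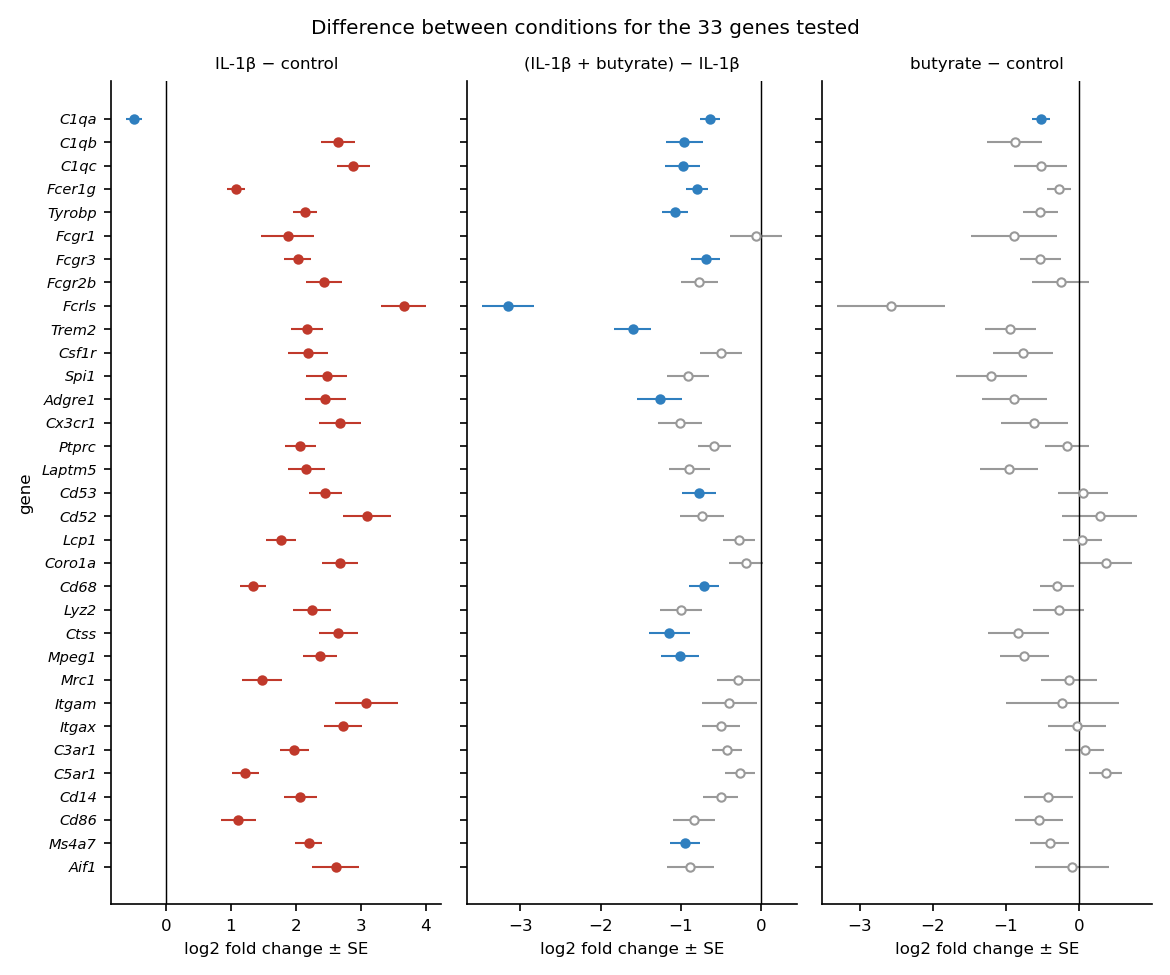
Log2 fold change of the 33 genes tested, with its SE, for IL-1β against control, IL-1β and butyrate against IL-1β, and butyrate against control. Filled points are called (red raised, blue lowered) and open points are not. In the left panel 32 points lie right of 0, in the middle panel all 33 lie left of 0, and in the right panel only C1qa is filled.

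A dependence of the butyrate effect on IL-1β was not detected for any of these genes. Its log2 fold change in the presence of IL-1β minus that in its absence was called for 0 of the 33 genes by edgeR, where 0.0968% of all genes tested were called (0.043% higher and 0.0538% lower). The difference was negative for 29 of the 33 and for 8803 of all 18587 genes tested, with a median of -0.41 beside 0.01. At an unadjusted p under 0.05, 3 of the 33 passed, as did 7.33% of all genes tested, the lowest adjusted p by edgeR was 0.522, and DESeq2 called 0. With the replicate number as a block, 0 of the 33 were called, where 132 of all 18587 genes tested were called. In that fit 11 of the 33 had an unadjusted p under 0.05, and the lowest adjusted p by edgeR was 0.159.

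Within conditions, the genes moved together from library to library. Each log2 CPM value was set against the mean of its gene in its condition, which removes the difference between conditions. Over the 16 libraries the median Pearson r of these deviations between pairs of the 33 genes was 0.56, and 90.5% of the 528 pairs were above 0. Over all genes tested the median was -0.00. The points share their libraries, and hence depth and scaling. With IL-1β, replicate 4 was the highest library for 26 of the 33 genes and replicate 1 the lowest for 27. With both additions, replicate 4 was the highest for 25 and replicate 1 the lowest for 26. In control and butyrate the spread was less one-sided, with 20 and 16 genes lowest in replicate 1. The libraries with 26 or more of the 33 genes above their condition mean were IL-1β replicates 3 and 4 (26 and 31 of 33), IL-1β and butyrate replicates 3 and 4 (30 and 31), butyrate replicate 3 (28) and control replicate 4 (26), while between 46.7% and 53.9% of all genes tested lay above their mean in any library. The highest library exceeded the lowest by a median of 1.96-fold in control, 1.75-fold with IL-1β, 2.24-fold with both and 1.67-fold with butyrate, leaving out C1qa.

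C1qa ran against the others here too. Its deviations had a median r of -0.61 with those of the other 32 genes over the 16 libraries. The mean of each replicate number was left in here, and in all 4 conditions C1qa was highest in replicate 1. Without C1qa the median r of the remaining genes was 0.58. The libraries with the same replicate number tended to deviate alike. With the mean of each number removed as well, the median r over the 33 genes fell from 0.56 to 0.25, so part of the common movement went with the replicate number. The part of the replicate number in the negative r of C1qa was not tested.

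**Figure D5:**
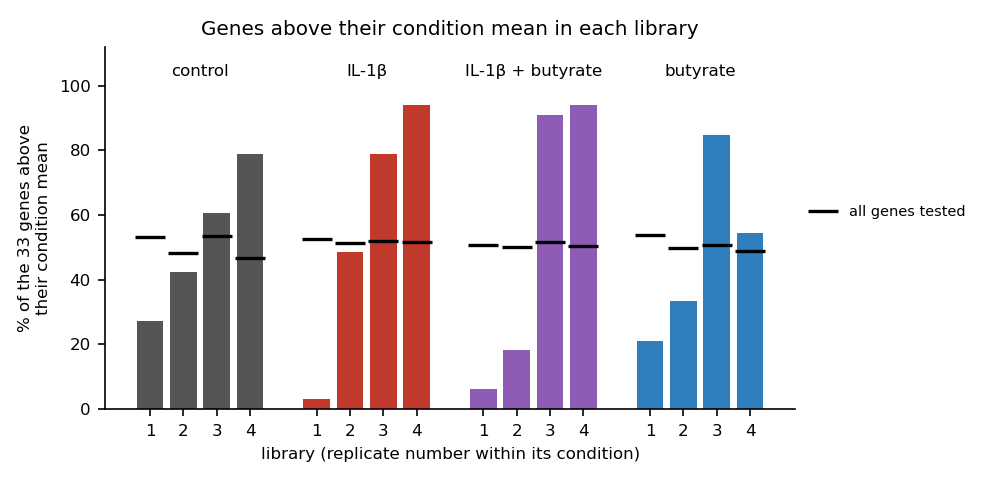
Share of the 33 genes above their condition mean in each library (bars, in percent), with the share of all genes tested (black dashes). The dashes stay near 50% whereas the bars run from 3.03% in IL-1β replicate 1 to 93.9% in IL-1β replicate 4 and in IL-1β and butyrate replicate 4.

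Other macrophage genes also rose with IL-1β and in part fell with butyrate added. Of 40 further genes on a list of macrophage genes, 36 were tested. With IL-1β, 26 of the 36 were raised, beside 11.2% of all genes tested, among them Tmem119 (2.66 ± 0.38, edgeR adjusted p = 4.88e-06) and Cybb, the catalytic subunit of the phagocyte oxidase (2.28 ± 0.24, edgeR adjusted p = 3.47e-06), and P2ry12 was lowered. With butyrate added, 11 of the 36 were lowered and 0 raised by edgeR, beside 11.1% and 8.41% of all genes tested, the lowered ones including Tmem119 (-2.15 ± 0.36, edgeR adjusted p = 4.22e-05), Cybb (-1.18 ± 0.21, edgeR adjusted p = 0.000708) and P2ry12, and 19 passed at an unadjusted p under 0.05, beside 39.9% of all genes tested, with 10 lowered and 0 raised by DESeq2. P2ry12, a purine receptor of microglia, was called lower in the same comparisons as C1qa: it was lowered by IL-1β (-0.45 ± 0.10), by butyrate in its presence (-0.71 ± 0.11) and by butyrate alone (-0.57 ± 0.10), with edgeR adjusted p = 0.000792, 1.19e-05 and 7.09e-05. Of 10 macrophage activation products, 6 were tested. IL-1β raised its own transcript Il1b (1.02 ± 0.18, edgeR adjusted p = 7.83e-05) and the chemokine gene Ccl2 (1.58 ± 0.38, edgeR adjusted p = 0.00242), and butyrate lowered Il1b both in its presence (-1.41 ± 0.19, edgeR adjusted p = 1.88e-06) and alone (-1.68 ± 0.24, edgeR adjusted p = 4.95e-06).

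Growth factors and ligands of these receptors were changed unequally by butyrate. Of 10 listed, 7 were tested and 5 were raised by IL-1β, beside 11.2% of all genes tested. With butyrate added 3 of the 7 were raised and 0 lowered by edgeR, beside 8.41% and 11.1% of all genes tested, and the log2 fold changes of 3 were negative, with a median of 0.04 over the 7 (5 passed at an unadjusted p under 0.05, and DESeq2 called 3 raised and 1 lowered). Csf1 had 10.8, 9.84, 8.74 and 9.97 CPM in the control libraries, 35.5, 35.6, 40.8 and 41.3 with IL-1β, 52.5, 52.2, 56.1 and 50.6 with both additions and 12.6, 10.7, 8.99 and 9.55 with butyrate. Csf1 encodes the growth factor sensed through Csf1r, and all libraries with IL-1β lay above all those without. It rose by 1.96 ± 0.08 on the log2 scale with IL-1β and by a further 0.46 ± 0.07 with butyrate added, without overlap (edgeR adjusted p = 3.38e-16 and 1.11e-05). C3, the central complement protein and source of the C3AR1 ligand, rose by 3.77 ± 0.19 and a further 0.75 ± 0.15 (edgeR adjusted p = 3.77e-09 and 0.00241). Apoe, a ligand of TREM2, rose by 2.43 ± 0.28 and with butyrate added was at 51.9% of the IL-1β level, not called (edgeR adjusted p = 2.62e-05 and 0.0168).

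Summed markers of other leukocytes reached at most 6.90 CPM in any library. In control the T cell and dendritic cell sums lay above the level of Ptprc alone (1.17 to 2.71 CPM), and whether such cells were present was not tested. Of 9 T cell markers, Trbc2 was at 0 counts in all 16 libraries and Cd3d had at most 1, and the summed level was 3.64 to 5.05 CPM in control, 2.999 to 4.97 with IL-1β, 6.09 to 6.90 with both and 5.02 to 5.46 with butyrate. The T cell sum was thus higher, without overlap, when butyrate was added to IL-1β. Lck, a kinase of T cell receptor signalling, was the one called among the 4 tested, raised by butyrate alone (0.90 ± 0.18, edgeR adjusted p = 0.000327) and in the presence of IL-1β (1.23 ± 0.16, edgeR adjusted p = 1.27e-06). The 5 B cell markers summed to 1.77 to 2.87 CPM in control, 1.09 to 2.95 with IL-1β, 2.38 to 2.84 with both and 1.61 to 3.34 with butyrate. The 7 neutrophil markers summed to at most 0.722 CPM in any library, with Ly6g at 0 throughout, the 5 NK cell markers to at most 0.577 CPM, with Gzma at 0, and the 4 mast cell markers to at most 0.222 CPM, with Tpsb2 at 0. The 6 dendritic cell markers summed to 3.30 to 4.75 CPM in control, 2.22 to 4.28 with IL-1β, 4.03 to 5.17 with both and 4.27 to 6.37 with butyrate. The tissue itself was islet: 8 beta cell markers summed to 213491 to 236289 CPM in control, 136869 to 178429 with IL-1β, 137267 to 169347 with both and 221674 to 261225 with butyrate. The beta cell sum was thus lower, without overlap, in the conditions in which the macrophage genes were higher. The sum of 5 duct markers was 340 to 367 CPM in control, 499 to 597 with IL-1β, 514 to 812 with both and 327 to 366 with butyrate. Of these, Krt7 had 6097 to 10509 counts per library, Spp1, which macrophages also express, 174 to 9547, and Krt19, Sox9 and Cftr at most 75. Spp1 was raised by IL-1β (3.74 ± 0.38, edgeR adjusted p = 7.44e-06). The 6 acinar markers summed to 18.8 to 30.0 CPM in control, 18.9 to 26.4 with IL-1β, 8.43 to 15.7 with both and 13.4 to 19.7 with butyrate. Their sum was thus lower, without overlap, when butyrate was added to IL-1β. Of these, Cela1 had 134 to 608 counts per library, Ctrb1 1 to 218 and the others at most 60, and DESeq2 called 1 of the 6 lowered there. The 3 delta cell markers summed to 1689 to 1989 CPM in control, 1739 to 2216 with IL-1β, 2622 to 3184 with both and 2389 to 2769 with butyrate, higher without overlap when butyrate was added. Sst had 30306 to 73826 counts per library, Rbp4 2118 to 4119 and Hhex 198 to 457. With butyrate added to IL-1β, DESeq2 called 1 of the 3 raised. The part of any of these in the results on the macrophage genes was not tested.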

How the data were processed

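RNA sequencing libraries had been prepared from the 16 islet samples with NEBNext Ultra II and read single-end on an Illumina HiSeq. The authors mapped the reads to GRCm38 with STAR 2.5.3a and deposited whole-number counts per gene, without normalization. Strand setting and annotation release are not given in the sources used here. Reads carried no molecular identifiers. Symbols, exon overlaps and lengths were taken from GENCODE M21.

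The 35 genes, their roles and the further lists were chosen with earlier results of these data known. Genes were kept by filterByExpr, scaled by TMM and fitted in edgeR 4.0.16 (R 4.3.3) with 1 robust quasi-likelihood model of the 4 conditions over 16 libraries. The threshold was a Benjamini-Hochberg adjusted p under 0.01, and all tests were two-sided. Log2 CPM used a prior count of 2. Levels in every library are given for genes named in a rule (Csf1r, Cd68, Adgre1, Ptprc, Spi1, Fcrls, Lyz2, Tyrobp, Fcer1g, and C1q and scavenger genes) and for the 4 called genes with the largest log2 fold change in each of the first 3 comparisons, which added Cd52, Itgam, Trem2 and Ctss. Alternatives were DESeq2 1.42.0, other scalings, no filter, an adjusted p under 0.05, a replicate block, fits of the compared conditions alone, and leaving libraries out. No libraries of a condition agreed within counting error, with a chi-square per gene from 1.72 to 13.5. The script was tested on simulated counts.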

Additional observations from a re-analysis of the deposited data

Results flagged for a closer look

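Of 140 groups of 4 libraries (35 genes in 4 conditions), 4 had a library set apart from the other 3 by more than Dixon's critical share of the whole range, and chance alone gives about 1 in 20. Fcer1g was at 5.22 CPM in IL-1β replicate 1, with the nearest library at 6.89. Fcgr3 was at 0.709 CPM in control replicate 2, with the nearest at 0.908. Clec4a3 was at 0 CPM in control replicate 1, with the nearest at 0.0834, and at 0.193 CPM in IL-1β and butyrate replicate 4, with the nearest at 0.0438.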

How the results depend on the processing

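The count called for IL-1β against control stayed between 30 and 34 under all alternatives. For butyrate added to IL-1β the 14 calls became 27 with the replicate block, 23 at an adjusted p under 0.05, 6 in a fit of those conditions alone, 8 to 21 without 1 library, and 5 to 16 without 1 replicate number (5 without replicate 2 and 6 without replicate 3). For butyrate alone the 1 call became 2 with DESeq2, 9 with the replicate block, 3 at an adjusted p under 0.05, 7 in a fit of those conditions alone, 0 to 1 without 1 library and 0 to 2 without 1 replicate number. Replicate numbers were not taken as pairs, since neither labels nor methods state which libraries share an experiment. The paper's methods do name a paired t-test among the tests against control. They do not say that replicate numbers mark the pairs. The column headers do number the libraries in blocks by replicate number, with the conditions in the same order in each block. Of 24 pairs of same-numbered libraries 17 correlated above 0.1 in their deviations, and all correlations were positive (0.053 to 0.397). Of 16 libraries, 14 correlated best with their own number. Over all genes tested the block called 4983 beside 3629 in the main fit for butyrate added to IL-1β. For butyrate alone it called 4879 beside 3697. If the numbers mark shared experiments, counts from the fit without the block may therefore be too low. The median r of the genes was 0.25 with the replicate number removed as well. The log2 ratio of the summed level of the 35 genes was 1.16 for IL-1β against control, 2.06 as a mean of log2 CPM and 2.28 without C1qa. For both additions it was 0.31, 1.25 and 1.37 against control, and 0.81, 1.66 and 1.83 against butyrate. No result reversed its direction. The causes were not tested. The fit of compared conditions alone was not run for the difference between butyrate effects. Alternatives without a replicate number and the sum without C1qa were chosen after seeing the data. Depth limited Fcgr1, Itgam, Cd52, Aif1, Cd163 and Clec4a3, whose control libraries had at most 9 counts.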
